A study of Homo sapiens with 12 samples.

Results

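Tumour cells can restrain immune attack through proteins on their surface, and 5 genes of that kind were followed here in 2 triple-negative breast cancer cell lines. CD274 encodes PD-L1 and PDCD1LG2 encodes PD-L2, the ligands of the T cell receptor PD-1. CD276 encodes B7-H3, a B7 family protein whose receptor is still debated. CD47 encodes the signal that tells macrophages not to engulf a cell, and NT5E encodes CD73, an enzyme of the cell surface. The genes were chosen by their names, all 5 are among the 32152 listed genes, and all 5 passed the filter on low values with 13737 protein-coding genes in all.

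RNA was sequenced from 12 libraries of MDA-MB-231 and Hs-578T, established human breast cancer lines with mesenchymal features. Per line there were 3 labels with 2 libraries each, namely parental controls without treatment, ERK5-ko and MEK5DD. ERK5-ko cells were made with CRISPR-Cas9 guides to MAPK7, the gene of the kinase ERK5, and in MDA-MB-231 they descend from 1 clone that survived sorting. For Hs-578T, 6 clones were plated, and which of them was sequenced is not given in the sources used here. MEK5 is the kinase upstream of ERK5, MEK5DD is a version of it that is always active, and how it was brought into the cells is not given in the sources used here. No other agent or allele is named in the labels, and all cells were harvested at 70% confluence. The replicates of a group carry consecutive passage numbers, so that p-values measure the spread between passages of a culture. This spread was pooled per gene over all 6 groups and both lines, so it is not that of the cultures compared. It was unequal, with a chi-square of reads per degree of freedom of 2.82 in MDA-MB-231 MEK5DD replicates. In Hs-578T it was 30.7 for parental and 41.9 for MEK5DD replicates. Parental controls were at passages 29 and 30 in MDA-MB-231 and 83 and 84 in Hs-578T, and all other libraries were labelled with passages between 7 and 11. Per the study's methods, the ERK5-ko lines were made from parental cells of a higher passage than that, so these numbers are not on one scale with those of the parental controls. Against parental controls, the effect of passage number and that of the label cannot be told apart.

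Between 20248162 and 27791195 reads lay behind each library, recovered from the deposited RPKM values (reads scaled to gene length and to the total of a library), and 92.0% to 94.5% of them fell on listed genes. The targeted gene MAPK7 had no lower RNA level where ERK5-ko was the label than in parental controls. It was at 17.0 ± 1.04 RPKM for MDA-MB-231 and 18.0 ± 0.268 for Hs-578T (SD, n = 2), against 13.8 ± 0.699 and 14.97 ± 1.42. In these RNA data, directions therefore rest on the labels. By Western blot, the study reported loss of ERK5 protein in the ERK5-ko cells of both lines, which RNA levels do not measure. Its methods also name qRT-PCR, a measure of RNA, as a check of the knockout in the clones. No qRT-PCR value for MAPK7 is given in the sources used here, and the sequenced libraries show no lower MAPK7 RNA. MAPK7 shares 103 bases with MFAP4 and 462 with B9D1, both on the opposite strand, and how reads in overlaps were assigned is not given in the sources used here. MAP2K5, the gene of MEK5, was at 186 RPKM in MDA-MB-231 MEK5DD libraries against 13.2 in parental controls, but at 22.5 against 15.8 in Hs-578T. ESR1 and PGR reached at most 0.12 and 0.348 RPKM in a library, whereas ERBB2, the gene of HER2, lay between 27.8 and 56.8. Of 21 listed markers of immune and endothelial cells, PTPRC, CD3E and CDH5 were at most at 0.396 RPKM in any library, and 8 markers passed the filter on low values. Of these 8, 0 were higher and 4 lower than parental controls in MDA-MB-231 ERK5-ko, where 6.91% of all genes were higher and 10.4% lower. In Hs-578T ERK5-ko libraries 1 was higher and 3 lower (19.7% and 19.7% of all genes). In MDA-MB-231 MEK5DD libraries 3 were higher and 4 lower (17.5% and 23.8%), and in Hs-578T MEK5DD libraries 0 and 3 (6.44% and 17.0%). CSF1R (1.96 to 5.83 RPKM by group) was lower in all 4 comparisons, and PECAM1 (0.252 to 6.39) and CD14 (0.416 to 1.99) were lower in 3 each. CD68 (24.4 to 107 RPKM by group) and, in Hs-578T, NCAM1 (40.2 to 136) made up most of the summed level, and the part of these markers in the results was not tested.

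PD-L1 and PD-L2 bind PD-1 on activated T cells and dampen their signalling, and PD-L1 is induced by interferon gamma. CD47 binds SIRP alpha on macrophages and dendritic cells as well as thrombospondin 1, and CD73 turns extracellular AMP, which CD39 makes from ATP, into adenosine, which then quiets T cells through an adenosine receptor. In breast cancer, PD-L1 and CD73 are found above all in triple-negative tumours.

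CD274 lies on chromosome 9 (ENSG00000120217.13, 5450503 to 5470566 of GRCh38, plus strand) and PDCD1LG2 beside it (ENSG00000197646.7, 5510570 to 5571254, plus strand). CD276 is on chromosome 15 (ENSG00000103855.17, 73683966 to 73714518, plus strand), CD47 on chromosome 3 (ENSG00000196776.14, 108043298 to 108091025, minus strand) and NT5E on chromosome 6 (ENSG00000135318.11, 85449584 to 85495791, plus strand). No other listed gene overlaps the exons of these 5 genes. RefSeq promoter entries (GRCh38.p14) were found for CD274, CD276, CD47 and NT5E and were searched on both strands for 9 short motifs. The 250 bases before the RefSeq start of CD274 (chr9:5450292-5450541, plus strand) and of NT5E (chr6:85449833-85450082, plus strand) are shown because these genes differed most between the lines, with matches in capitals.

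CD274: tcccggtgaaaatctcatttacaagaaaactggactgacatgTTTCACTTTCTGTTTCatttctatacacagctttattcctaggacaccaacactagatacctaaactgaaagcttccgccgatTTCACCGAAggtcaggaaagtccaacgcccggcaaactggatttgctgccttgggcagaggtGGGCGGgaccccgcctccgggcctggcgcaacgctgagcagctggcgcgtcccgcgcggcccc

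NT5E: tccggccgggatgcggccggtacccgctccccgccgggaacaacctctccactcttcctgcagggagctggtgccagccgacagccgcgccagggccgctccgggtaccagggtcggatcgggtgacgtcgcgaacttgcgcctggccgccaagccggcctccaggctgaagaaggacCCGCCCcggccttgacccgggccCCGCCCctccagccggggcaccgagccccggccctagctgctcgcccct

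In the CD274 window, the capitals mark 2 matches on the minus strand to a pair of GAAA blocks set 2 bases apart, which overlap each other from -208 to -193, 1 match to TTCNNNGAA from -125 to -117 and 1 match to GGGCGG from -63 to -58, counted back from the start. The first is a form of the interferon response element, the second of the gamma-activated site, and the third of an SP1 site. The pair of GAAA blocks was found in 3.02%, the gamma-activated site in 6.57% and the SP1 site in 42.6% of 35116 promoter windows of this length. NT5E held the SP1 site on the minus strand at -72 to -67 and -49 to -44 and no other searched motif. CD47 held 6 matches to the SP1 site and 1 to ACGTG, the core of the hypoxia response element, which 18.5% of the windows hold. The 2 entries of CD276 held 7 and 2 matches to the SP1 site, and 1 of them held the hypoxia core. The AP-1 site TGANTCA, the MEF2 core TAAAAATA, the TATA box TATAAA, the TEAD site GGAATG and the cyclic AMP response element TGACGTCA had no match in any of these windows, and 6.57%, 2.09%, 10.7%, 11.9% and 1.65% of all windows held them. A match is a stretch of letters and no measure of binding.

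The 5 genes stood at very different levels. In parental MDA-MB-231, NT5E was at 458 ± 4.09 RPKM (SD, n = 2), among the top 0.991% of 17665 protein-coding genes, whereas PDCD1LG2 was at 1.65 ± 0.0452 RPKM, at 64.5% from the top. The lengths behind the RPKM values were close to the mean length of a gene's GENCODE 29 transcripts, within 2% for 28167 of 31583 genes. CD276 counted as 1275 bases, but CD47 as 2815, which is outside that range of its mean of 2513. On these lengths CD276 (66.4 RPKM) was above CD47 (50.02 RPKM) in parental MDA-MB-231. Scaled by their longest transcripts, the same reads gave 24.4 RPKM for CD276 and 20.7 for CD47. The order of the 5 genes was the same by either length in every group but ERK5-ko libraries of Hs-578T, where CD274 was above PDCD1LG2 by the deposited values and below it by the longest transcripts (0.970 against 1.47 RPKM). Ratios of RPKM between libraries do not depend on the length, but fitted fold changes of low genes do through the pseudocount, CD274 in Hs-578T above all.

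**Figure D1:**
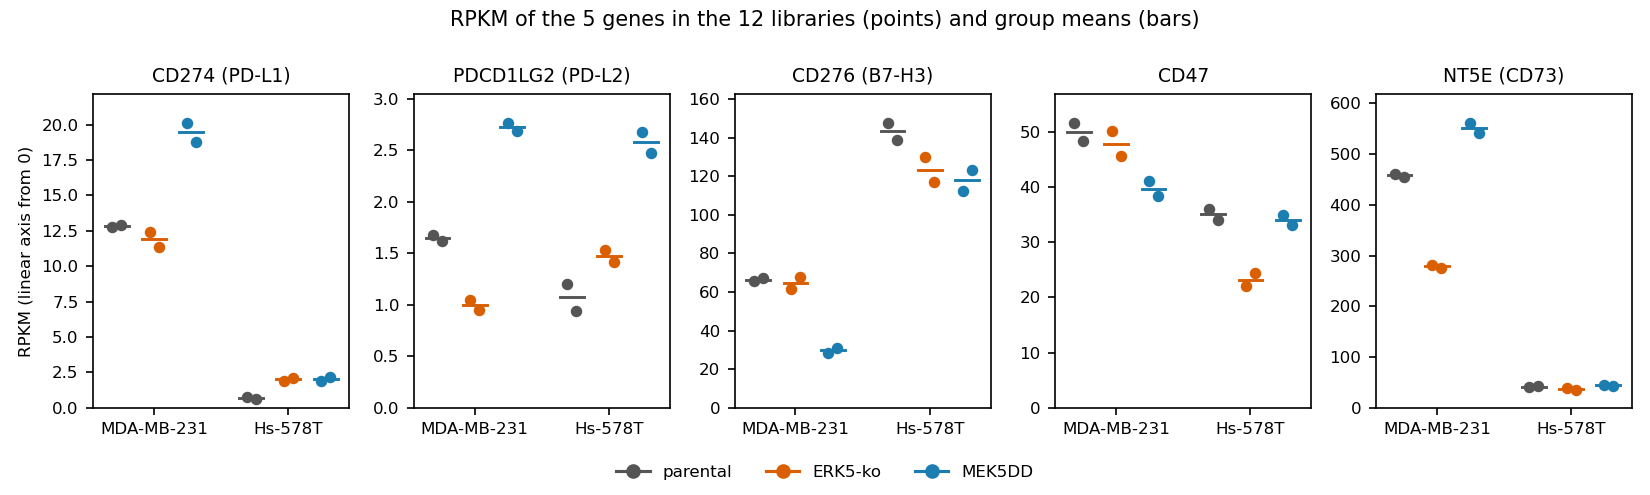
RPKM of CD274, PDCD1LG2, CD276, CD47 and NT5E (1 panel each, linear axis from 0) in MDA-MB-231 and Hs-578T libraries, with 1 point per library and a bar at the mean of the 2 libraries. NT5E and CD274 separate the lines in all groups, CD276 is lowest in MDA-MB-231 MEK5DD libraries, and CD47 is lowest in Hs-578T libraries labelled ERK5-ko.

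Parental MDA-MB-231 and Hs-578T differed in all 5 genes, 4 of them higher and 1 lower in MDA-MB-231, at an adjusted p under 0.05 (limma on log2 of RPKM + 0.5). Of all genes tested, 77.4% passed in this comparison, 46.0% higher and 31.3% lower, so that a count of 5 says little about these genes. On the study's fold thresholds CD274 and NT5E were called higher and CD276 lower, where 34.1% of all genes were higher and 15.4% lower. CD274 was read in both lines but at levels far apart. Its RPKM was 12.8 and 12.9 in the parental MDA-MB-231 libraries and 0.779 and 0.637 in those of Hs-578T, where only 31 and 23 reads lay behind the values. The groups did not overlap, the ratio of the means was 18.2, and the log2 fold change was 3.47 (SE 0.114, adjusted p = 9.5e-11). Because 0.5 was added to every RPKM, this fold change understates the ratio, and with a pseudocount of 0.1 it was 4.01.

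NT5E showed a gap of similar size, with 461 and 456 RPKM in parental MDA-MB-231 and 40.9 and 42.3 in parental Hs-578T. The ratio of the means was 11, and the log2 fold change was 3.45 (SE 0.0814, adjusted p = 6.1e-12). For both genes, every MDA-MB-231 library was above every Hs-578T library, whatever its label. CD276 went the other way, with 65.8 and 67.1 RPKM in parental MDA-MB-231 against 148 and 139 in parental Hs-578T (log2 fold change -1.10, SE 0.0934, adjusted p = 5.4e-07). CD47 was at 51.6 and 48.4 RPKM against 36.1 and 34.0, a log2 fold change of 0.51 (SE 0.0915, adjusted p = 0.00032), and PDCD1LG2 at 1.68 and 1.62 against 1.21 and 0.941, a log2 fold change of 0.45 (SE 0.112, adjusted p = 0.003). Median-ratio scaling of the libraries shifted the median of all genes between the parental lines by -0.24 on the log2 scale, and all 5 genes still passed, with log2 fold changes of 3.28 for CD274, 0.28 for PDCD1LG2, -1.34 for CD276, 0.27 for CD47 and 3.21 for NT5E. Quantile normalization gave 0.33 for CD47. In bulk RNA, a smaller share of cells that express a gene and less of its RNA in each cell cannot be told apart.

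CD274 passed in 3 of the 4 comparisons with parental controls, each time higher, and PDCD1LG2 in all 4, once lower and 3 times higher. In ERK5-ko libraries of MDA-MB-231, 0 of the 5 genes were higher and 2 were lower than in parental controls, where 6.91% of all genes were higher and 10.4% lower. None was called on the study's thresholds (a fold above 1.5 or below 0.5 with an adjusted p under 0.05), by which 2.8% of all genes were higher and 1.07% lower. CD274 was at 12.4 and 11.4 RPKM, below but close to both parental libraries, and the log2 fold change was -0.11 (95% interval -0.36 to 0.14, adjusted p = 0.58). PDCD1LG2 fell to 1.05 and 0.951 RPKM, on 56 reads in each library, against 1.68 and 1.62 (log2 fold change -0.52, SE 0.112, adjusted p = 0.0089). Its call was lost without parental replicate 1 (adjusted p = 0.076), parental replicate 2 (adjusted p = 0.0557) or ERK5-ko replicate 2 (adjusted p = 0.0718), each time with a log2 fold change between -0.54 and -0.47.

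Hs-578T behaved otherwise. In its libraries labelled ERK5-ko, 2 of the 5 genes were higher and 1 was lower, where 19.7% of all genes were higher and 19.7% lower. CD274 rose from 0.779 and 0.637 RPKM to 1.93 and 2.13, a 2.87-fold ratio of the means and a log2 fold change of 1.07 (SE 0.114, adjusted p = 3.3e-05). On the study's thresholds CD274 was the 1 gene of the 5 that was called, where 9.35% of all genes were higher and 3.27% lower. PDCD1LG2 was at 1.54 and 1.42 RPKM against 1.21 and 0.941, without overlap, with a log2 fold change of 0.33 (SE 0.112, adjusted p = 0.035). This smaller rise of PDCD1LG2 lost its call without any of 7 libraries. Among them was Hs-578T parental replicate 2, without which the log2 fold change was 0.21. Others were MDA-MB-231 libraries, which enter this comparison only through the pooled spread and the p-value adjustment. Without any of these the log2 fold change stayed at 0.33. The call was also lost in voom on recovered reads (0.46, adjusted p = 0.062), a test chosen after seeing the data.

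In MDA-MB-231 MEK5DD libraries, 3 of the 5 genes were higher and 2 lower than in parental controls, where 17.5% of all genes were higher and 23.8% lower. CD274 rose to 20.1 and 18.8 RPKM, above both parental libraries (log2 fold change 0.58, SE 0.114, adjusted p = 0.0017). The ratio of its means was 1.51, and the fitted fold of 1.49 was just under the study's threshold. PDCD1LG2 rose to 2.77 and 2.69 RPKM (log2 fold change 0.59, SE 0.112, adjusted p = 0.0014), with a ratio of the means of 1.65 and a fitted fold of 1.503, just over the threshold, where 7.64% of all genes were called higher and 6.31% lower. The ratio of CD274 means thus lay on the other side of the threshold than its fitted fold.

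Hs-578T MEK5DD libraries held 2 of the 5 genes that were higher and 1 that was lower, where 6.44% of all genes were higher and 17.0% lower. The 2 higher genes were again the PD-1 ligands. CD274 was at 1.90 and 2.21 RPKM, 2.90 times the parental mean (log2 fold change 1.08, SE 0.114, adjusted p = 8.9e-05). PDCD1LG2 was at 2.68 and 2.48 RPKM, 2.40 times the parental mean (log2 fold change 0.97, SE 0.112, adjusted p = 0.00017). Both were called higher on the study's thresholds, where 2.9% of all genes were higher and 1.49% lower. In Hs-578T, CD274 therefore rose in both engineered cultures, and the ERK5-ko and MEK5DD libraries overlapped (log2 difference -0.01, 95% interval -0.26 to 0.24, adjusted p = 0.94).

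CD274 was thus highest in MDA-MB-231 MEK5DD libraries, and the parental and ERK5-ko libraries of that line, next in order, did not differ beyond their spread. For PDCD1LG2, the MEK5DD libraries of both lines stood at the top with 2.73 ± 0.0544 RPKM for MDA-MB-231 and 2.58 ± 0.142 for Hs-578T (SD, n = 2), a difference that did not pass (adjusted p = 0.59). The MDA-MB-231 libraries labelled ERK5-ko (1.002 ± 0.0714 RPKM) and the parental Hs-578T libraries (1.07 ± 0.187) stood at the bottom and did not differ beyond their spread (adjusted p = 0.62). ERK5-ko libraries were below MEK5DD libraries for PDCD1LG2 in MDA-MB-231 (log2 difference -1.11, SE 0.112, adjusted p = 7.6e-06) and Hs-578T (-0.64, SE 0.112, adjusted p = 0.00071), and for CD274 in MDA-MB-231 (-0.69, SE 0.114, adjusted p = 0.00032). All 5 genes passed this comparison of engineered cultures in MDA-MB-231, 2 higher and 3 lower in ERK5-ko, where 27.1% of all genes were higher and 27.9% lower. On the study's fold thresholds CD276 was called higher and PDCD1LG2 lower, where 17.5% of all genes were higher and 6.12% lower. In Hs-578T 3 passed, all lower in ERK5-ko, where 30.7% were higher and 19.2% lower, and 0 were called on the fold thresholds, where 15.3% were higher and 3.96% lower.

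**Figure D2:**
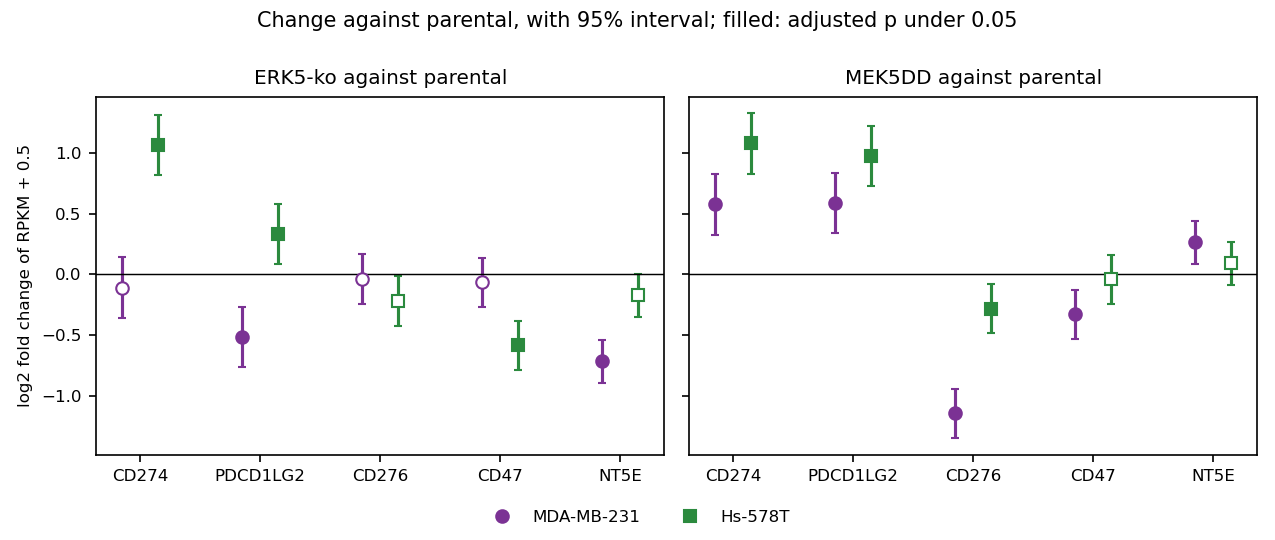
log2 fold change of RPKM + 0.5 against parental controls, with 95% intervals, for libraries labelled ERK5-ko (left) and MEK5DD (right), MDA-MB-231 as circles and Hs-578T as squares, filled where the adjusted p was under 0.05. CD274 and PDCD1LG2 lie above 0 in both lines with MEK5DD, whereas CD276 has its largest change, -1.15, in MDA-MB-231 MEK5DD libraries.

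CD276 was the gene with the largest change of the 5 in MDA-MB-231 MEK5DD libraries. It fell to 28.7 and 30.9 RPKM against 65.8 and 67.1 in parental controls, a log2 fold change of -1.15 (SE 0.0934, adjusted p = 2.1e-06), and was called lower on the study's thresholds. Between 879 and 2376 reads lay behind each of these values. In libraries labelled ERK5-ko of the same line, CD276 was at 61.5 and 67.95 RPKM, which overlapped the parental controls (log2 fold change -0.04, 95% interval -0.24 to 0.17, adjusted p = 0.84).

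In Hs-578T, CD276 was higher throughout and moved less with MEK5DD. It was at 130 and 117 RPKM in libraries labelled ERK5-ko (log2 fold change -0.22, 95% interval -0.42 to -0.01, adjusted p = 0.089) and at 113 and 123 in MEK5DD libraries, against 148 and 139 in parental controls. The MEK5DD difference, -0.28 on the log2 scale (SE 0.0934, adjusted p = 0.04975), lay at the edge of the threshold. It was lost without any of 11 of the 12 libraries, with log2 fold changes from -0.33 to -0.22. Among these were MDA-MB-231 libraries, which enter this comparison only through the pooled spread and the p-value adjustment. Without any of those the log2 fold change stayed at -0.28. In order, the 3 Hs-578T groups came first and did not differ from their neighbours beyond the spread, followed by MDA-MB-231 parental and ERK5-ko libraries, alike within the spread, and MDA-MB-231 MEK5DD libraries last.

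Against parental controls, CD47 passed in 2 comparisons, lower in both, one in each line. In Hs-578T libraries labelled ERK5-ko it fell to 22.1 and 24.4 RPKM against 36.1 and 34.0 in parental controls (log2 fold change -0.58, SE 0.0915, adjusted p = 0.00048). MEK5DD libraries of Hs-578T, at 34.9 and 33.2 RPKM, overlapped the parental controls (log2 fold change -0.04, 95% interval -0.24 to 0.16, adjusted p = 0.80). In MDA-MB-231 the libraries labelled ERK5-ko, at 50.1 and 45.6 RPKM, overlapped parental controls at 51.6 and 48.4 (log2 fold change -0.06, 95% interval -0.26 to 0.14, adjusted p = 0.70).

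MDA-MB-231 MEK5DD libraries were lower in CD47, at 41.0 and 38.4 RPKM (log2 fold change -0.33, SE 0.0915, adjusted p = 0.013). That call was lost without parental replicate 1 (-0.28, adjusted p = 0.11) or MEK5DD replicate 2 (-0.28, adjusted p = 0.11). Directly compared, ERK5-ko libraries were below MEK5DD libraries in Hs-578T (log2 difference -0.54, SE 0.0915, adjusted p = 0.00053) and above them in MDA-MB-231 (0.27, SE 0.0915, adjusted p = 0.028), the latter lost without ERK5-ko replicate 1 (0.20, adjusted p = 0.18), MEK5DD replicate 1 (0.31, adjusted p = 0.057) or MEK5DD replicate 2 (0.22, adjusted p = 0.17). Libraries of Hs-578T labelled ERK5-ko were the lowest of the 6 groups, and all 12 libraries lay between 22.1 and 51.6 RPKM, the narrowest relative range of the 5 genes.

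NT5E was the most abundant of the 5 genes in every MDA-MB-231 library. It fell to 282 and 276 RPKM in libraries labelled ERK5-ko against 461 and 456 in parental controls, 0.609 times the parental mean (log2 fold change -0.71, SE 0.0814, adjusted p = 0.00019). It was at 561 and 540 RPKM in MEK5DD libraries, 1.20 times the parental mean (log2 fold change 0.26, SE 0.0814, adjusted p = 0.022). The fall held without each library in turn, whereas the rise lost its call without either parental replicate (0.27, adjusted p = 0.093, and 0.26, adjusted p = 0.11) or either MEK5DD replicate (0.24, adjusted p = 0.14, and 0.29, adjusted p = 0.0722). Since ERK5-ko libraries were below and MEK5DD libraries above parental controls, their direct difference was the largest, -0.98 on the log2 scale (SE 0.0814, adjusted p = 1.5e-06).

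In Hs-578T the order of NT5E was the same, with much smaller steps. It was at 38.9 and 34.9 RPKM in libraries labelled ERK5-ko, 40.9 and 42.3 in parental controls and 44.9 and 43.9 in MEK5DD libraries, with no overlap between the groups. Against parental controls, neither the ERK5-ko difference (log2 fold change -0.17, 95% interval -0.35 to 0.01, adjusted p = 0.12) nor the MEK5DD difference (0.09, 95% interval -0.09 to 0.27, adjusted p = 0.46) passed. The difference between ERK5-ko and MEK5DD libraries did (-0.26, SE 0.0814, adjusted p = 0.019), though not without ERK5-ko replicate 2 (-0.19, adjusted p = 0.16) or when Hs-578T libraries were fitted alone (adjusted p = 0.12).

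Whether a change differed between the lines was tested directly, as the change in MDA-MB-231 minus that in Hs-578T. For the ERK5-ko change, 4 of the 5 genes passed, 1 with a positive and 3 with a negative difference, where 39.8% of all genes passed, 18.3% with a positive and 21.5% with a negative one. With the study's fold thresholds applied to the difference, CD274 alone of the 5 was called, as negative, where 13.3% of all genes were positive and 7.31% negative. The difference was largest for CD274, at -1.18 (SE 0.161, adjusted p = 0.00021), whose RPKM differed little from parental controls in MDA-MB-231 and rose in Hs-578T. PDCD1LG2 went down in one line and up in the other, a difference of -0.85 (SE 0.159, adjusted p = 0.0016). NT5E fell further in MDA-MB-231 (-0.54, SE 0.115, adjusted p = 0.0034), and CD47 fell further in Hs-578T (0.52, SE 0.129, adjusted p = 0.0083). CD276 gave 0.18 (95% interval -0.11 to 0.47, adjusted p = 0.31).

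For the MEK5DD change, 2 of the 5 genes passed, both with a negative difference, where 39.6% of all genes passed, 21.3% with a positive and 18.2% with a negative difference. With the fold thresholds 0 were called, where 15.3% of all genes were positive and 6.89% negative. CD276 fell further in MDA-MB-231 (-0.86, SE 0.132, adjusted p = 0.0004). CD274 rose less in MDA-MB-231 on this scale (-0.50, SE 0.161, adjusted p = 0.028), but the value depended on the pseudocount, since the parental Hs-578T level was close to it. With a pseudocount of 1 it was -0.28 (adjusted p = 0.14), with a pseudocount of 0.1 it was -0.82 (adjusted p = 0.006), and in voom on recovered reads, chosen after seeing the data, it was -0.92 (adjusted p = 0.012). It also lost its call without either MDA-MB-231 parental replicate (adjusted p = 0.0768 and 0.0809), either MDA-MB-231 MEK5DD replicate (0.0538 and 0.102), Hs-578T parental replicate 2 (0.0796) or Hs-578T MEK5DD replicate 2 (0.06). PDCD1LG2 (-0.39, 95% interval -0.73 to -0.04, adjusted p = 0.075), CD47 (-0.29, 95% interval -0.57 to 0.00, adjusted p = 0.0996) and NT5E (0.17, 95% interval -0.08 to 0.43, adjusted p = 0.26) did not pass.

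**Figure D3:**
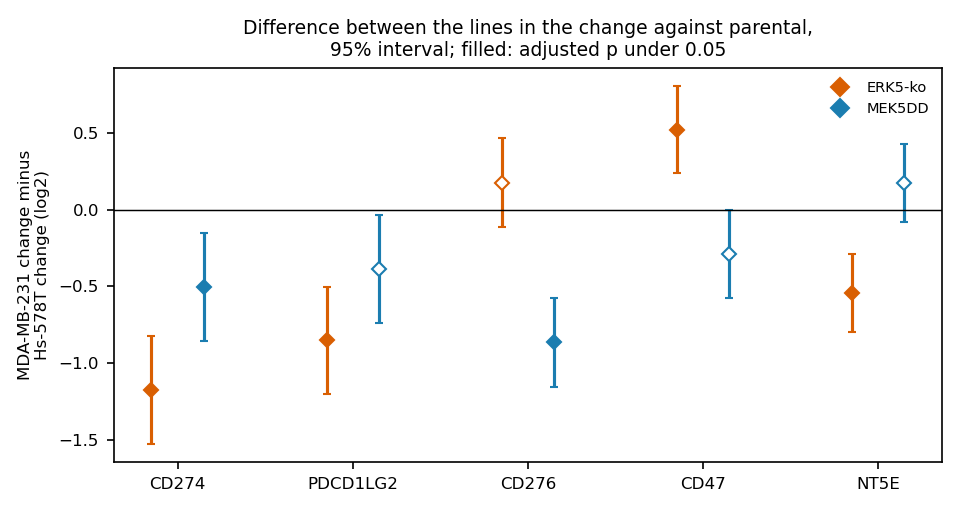
Change against parental controls in MDA-MB-231 minus that in Hs-578T, on the log2 scale with 95% intervals, for ERK5-ko and MEK5DD, filled where the adjusted p was under 0.05. CD274 (-1.18) and PDCD1LG2 (-0.85) differ most for ERK5-ko, and CD276 (-0.86) differs most for MEK5DD.

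The receptors and partners of these proteins gave a mixed picture. The counts in this and the next gene groups stand beside those of all genes, of which 6.91% rose and 10.4% fell in MDA-MB-231 ERK5-ko, 19.7% and 19.7% in Hs-578T ERK5-ko, 17.5% and 23.8% in MDA-MB-231 MEK5DD and 6.44% and 17.0% in Hs-578T MEK5DD libraries. PDCD1, the gene of PD-1, named here after its values were seen, was at most at 0.031 RPKM in a library. RGMB, which encodes a further ligand of PD-L2, rose in MDA-MB-231 MEK5DD libraries (log2 fold change 1.59, adjusted p = 1.9e-06). Of 5 tested receptor genes, 1 was higher and 0 lower in ERK5-ko libraries of MDA-MB-231, 3 and 0 in Hs-578T ERK5-ko libraries, 2 and 1 in MDA-MB-231 MEK5DD libraries and 0 and 0 in Hs-578T MEK5DD libraries. SIRPA, the gene of the CD47 receptor, was at 12.4 ± 0.391 RPKM in parental Hs-578T and 0.726 ± 0.0891 in parental MDA-MB-231 (SD, n = 2) and did not pass against parental controls in any of the 4 comparisons. CD80, which also binds PD-L1, was at most at 0.203 RPKM.

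CD274 and PDCD1LG2 were also set beside their neighbours on chromosome 9 and the genes known to control PD-L1. Of 14 tested neighbours in band 9p24, 0 were higher and 11 lower in parental MDA-MB-231 than in parental Hs-578T, where 46.0% of all genes were higher and 31.3% lower, and CD274 and PDCD1LG2 were both higher. JAK2, a kinase of interferon signalling that lies in this band, was lower in parental MDA-MB-231 (log2 fold change -0.71, adjusted p = 0.00025), and PLGRKT, which lies between JAK2 and CD274, likewise (-1.03, adjusted p = 3.6e-05). In the 4 comparisons with parental controls, 1 neighbour was higher and 1 lower (MDA-MB-231 ERK5-ko), 4 and 2 (Hs-578T ERK5-ko), 0 and 3 (MDA-MB-231 MEK5DD) and 3 and 3 (Hs-578T MEK5DD). JAK2 was higher in Hs-578T libraries labelled ERK5-ko (0.53, adjusted p = 0.0055), where CD274 rose. It did not pass in MEK5DD libraries of either line, where CD274 rose as well.

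Among 43 regulators of PD-L1 RNA, protein or glycosylation, 9 were higher and 7 lower in Hs-578T ERK5-ko libraries, and 2 and 9 in Hs-578T MEK5DD libraries. IFNGR1, a chain of the interferon gamma receptor, fell in both (log2 fold change -1.17, adjusted p = 2.3e-06, and -0.73, adjusted p = 0.00019). FOSL1, an AP-1 subunit, rose in the former (1.27, adjusted p = 1.7e-06) and gave -0.12 in the latter (adjusted p = 0.36). MDA-MB-231 showed 3 higher and 3 lower in ERK5-ko and 6 higher and 13 lower in MEK5DD libraries. In the latter IFNGR2 (-1.34, adjusted p = 2.4e-07) and IRF1 (-0.77, adjusted p = 0.00058) fell. The part of these regulators in the changes of CD274 was not tested. CMTM6, which keeps PD-L1 protein at the cell surface, fell in MEK5DD libraries of MDA-MB-231 (-0.57, adjusted p = 0.00017) and of Hs-578T (-0.30, adjusted p = 0.019).

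The other B7 and nectin family ligands gave 2 higher and 0 lower of 15 tested in MDA-MB-231 ERK5-ko libraries, 6 and 3 in Hs-578T ERK5-ko, 1 and 7 in MDA-MB-231 MEK5DD and 2 and 3 in Hs-578T MEK5DD libraries. The median log2 fold change was -0.16 in MDA-MB-231 MEK5DD libraries, against -0.01 over all tested genes. C10orf54, which encodes the checkpoint protein VISTA, rose in MDA-MB-231 ERK5-ko libraries (0.68, adjusted p = 0.0023) and fell in MDA-MB-231 MEK5DD libraries (-1.32, adjusted p = 4e-06), the latter in the direction of CD276. In Hs-578T MEK5DD libraries it rose (0.35, adjusted p = 0.04975), opposite to CD276 (-0.28). BTN3A2 and BTN3A1, butyrophilins of gamma delta T cell recognition, also fell in MDA-MB-231 MEK5DD libraries (-1.37, adjusted p = 1e-06, and -0.99, adjusted p = 1.7e-05). Reads can be split uncertainly among these near-identical genes. PVR, the poliovirus receptor that TIGIT binds, rose in Hs-578T ERK5-ko libraries (1.02, adjusted p = 8.7e-05), as CD274 did. Unlike CD274 (log2 difference -0.01, adjusted p = 0.94), PVR was also higher there than in Hs-578T MEK5DD libraries (0.98, adjusted p = 7.3e-05).

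Around CD47, 25 genes of its ligands, its maturation and phagocytosis signals were tested, with 4 higher and 2 lower in MDA-MB-231 ERK5-ko, 2 and 6 in Hs-578T ERK5-ko, 4 and 11 in MDA-MB-231 MEK5DD and 0 and 2 in Hs-578T MEK5DD libraries. THBS1, the gene of thrombospondin 1, rose in MDA-MB-231 in ERK5-ko (1.20, adjusted p = 0.0013) and MEK5DD libraries (0.97, adjusted p = 0.0014). THBS2, a related thrombospondin, rose in MDA-MB-231 ERK5-ko libraries (3.21, adjusted p = 7.6e-07), where CD47 did not pass. It fell in Hs-578T ERK5-ko (-1.28, adjusted p = 0.00013) and MDA-MB-231 MEK5DD libraries (-2.33, adjusted p = 6.8e-07), the groups in which CD47 was lower. QPCTL, the enzyme that modifies the N terminus of CD47 for SIRP alpha binding, did not pass in any of the 4 comparisons, with log2 fold changes between -0.10 and 0.16.

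In the adenosine pathway, parental MDA-MB-231 had more NT5E than parental Hs-578T but very little ENTPD1, the gene of CD39. ENTPD1 was at 0.00743 ± 0.000615 RPKM (SD, n = 2) in parental MDA-MB-231 and at 1.31 ± 0.0483 in parental Hs-578T. In Hs-578T, ENTPD1 fell in ERK5-ko (log2 fold change -1.12, adjusted p = 7.3e-06) and MEK5DD libraries (-0.80, adjusted p = 0.00024). ADORA2A, an adenosine receptor gene of T cells, rose in ERK5-ko libraries of MDA-MB-231 (0.64, adjusted p = 0.026) and Hs-578T (1.28, adjusted p = 0.00018) and fell in MDA-MB-231 MEK5DD libraries (-2.80, adjusted p = 2.3e-07), in MDA-MB-231 opposite to NT5E in both. ADORA2B, a related receptor gene, rose in Hs-578T ERK5-ko libraries (0.92, adjusted p = 0.00019). Of the 35 tested genes of the pathway, 7 rose and 5 fell in MDA-MB-231 ERK5-ko, 8 and 14 in Hs-578T ERK5-ko, 6 and 12 in MDA-MB-231 MEK5DD and 1 and 8 in Hs-578T MEK5DD libraries.

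**Figure D4:**
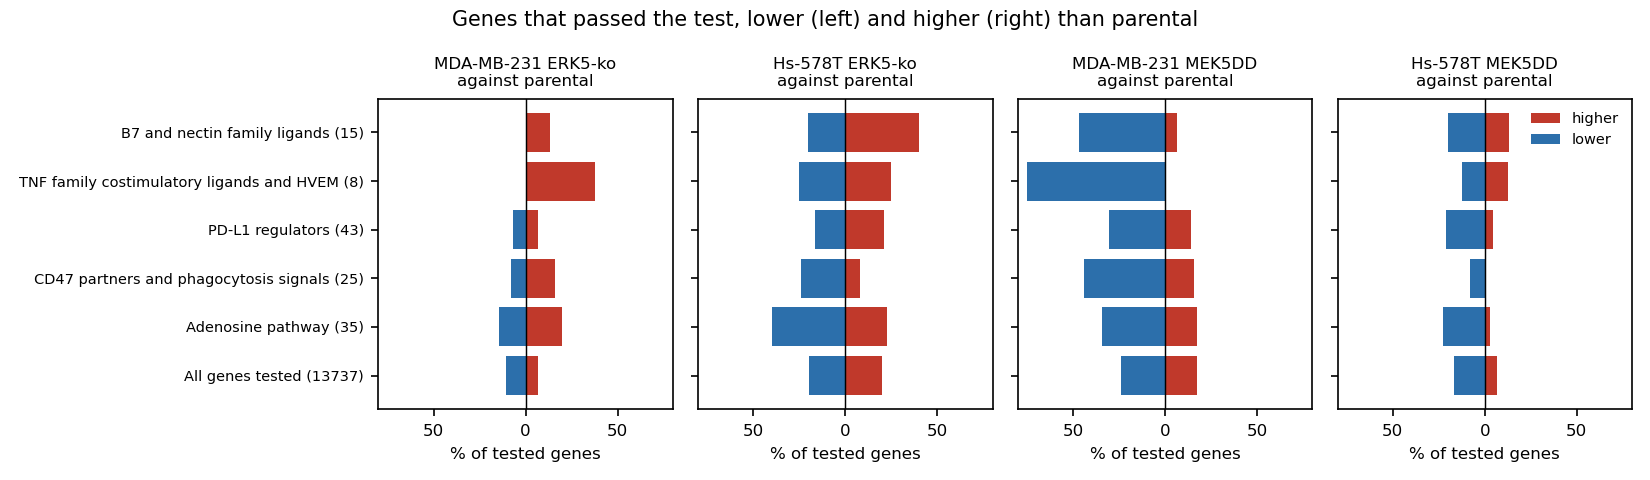
Percent of tested genes in 5 gene lists and among all 13737 tested genes (rows, with the number tested) that were lower (left of 0) or higher (right of 0) than parental controls at an adjusted p under 0.05, in 4 comparisons. In MDA-MB-231 MEK5DD libraries 7 of 15 B7 and nectin family ligands and 11 of 25 genes around CD47 were lower, against 23.8% of all genes.

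The genes whose pattern was most like that of each of the 5 were sought among 12423 genes, by Pearson's r over the 12 libraries after the mean of each line was subtracted. These r values are descriptions, since the 12 points are 6 groups of 2 and share their controls. CD274 was most like ANKLE2 (r = 0.973), TSPAN5 (0.968) and C4orf32 (0.950), and PDCD1LG2 most like PLAUR, the gene of the urokinase receptor (0.964), MTMR6 (0.957) and CPED1 (0.956). CD276 was most like CST2 (0.993), the chemokine gene CX3CL1 (0.993) and SMPD1 (0.991), although CST2 has near-identical copies with which reads may be shared. CD47 was most like ZCRB1 (0.970), STYX (0.967) and NIT2 (0.967), and NT5E most like TGFBR2, the gene of a TGF beta receptor (0.976), ZNF521 (0.970) and TDP1 (0.964). Among the 5 genes themselves, r was 0.790 for CD274 and PDCD1LG2 and 0.766 for PDCD1LG2 and NT5E, and -0.745 for PDCD1LG2 and CD276.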

How the data were processed

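The authors deposited RPKM values per gene for 12 libraries, made with a stranded mRNA kit. Per the labels, the submitters' processing notes name bcl2fastq, Trimmomatic 0.32, TopHat2 2.1.1, R 3.3.1, DESeq2 1.12.4 and GRCh38, and the counting tool and annotation are not given in the sources used here. Read totals were solved from the steps between RPKM values, and 100% of values were whole within 0.01 read.

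The main test was limma 3.58.1 (R 4.3.3) on log2(RPKM + 0.5), with a mean for each of 6 groups and a variance trend, over 13737 protein-coding genes that reached an RPKM of 0.5 in 2 libraries or more. P-values were adjusted by Benjamini-Hochberg in each comparison, and a gene passed under 0.05. Intervals are 95% from the same fit, and values are mean ± SD. The fit was tested on simulated data for MDA-MB-231 MEK5DD against parental, with the same dispersion for all genes and groups. It recovered 22% of 50 genes changed 1.25-fold, 82% of those changed 1.5-fold and 94% of those changed 2-fold. The simulation did not carry the unequal spread of the real groups, so it says nothing about calls in Hs-578T. The 5 genes, the gene lists and the alternatives were chosen with earlier results of these data known. Beside the 5 genes, MAPK7, MAP2K5 and marker genes, the text names known partners, listed genes among the 4 largest changes that passed in a comparison (mean RPKM of at least 1), and the 3 genes most alike in pattern. Alternatives changed the pseudocount, filter, scaling, gene types, replicate block, libraries fitted and fold thresholds, and limma voom on recovered reads was added after seeing the data. Promoters are RefSeq sequences. Tables were made with Python 3.11.15 and pandas 2.3.3.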

Additional observations from a re-analysis of the deposited data

Results flagged for a closer look

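Changes against parental controls that differed between MDA-MB-231 and Hs-578T, by the test of the difference itself in limma (change in MDA-MB-231 minus that in Hs-578T, log2 scale), drew attention in 6 cases. For ERK5-ko these were CD274 at -1.18 (adjusted p = 0.00021), PDCD1LG2 at -0.85 (adjusted p = 0.0016), CD47 at 0.52 (adjusted p = 0.0083) and NT5E at -0.54 (adjusted p = 0.0034). For MEK5DD these were CD276 at -0.86 (adjusted p = 0.0004) and CD274 at -0.50 (adjusted p = 0.028), and the latter was -0.28 and did not pass with a pseudocount of 1, but was -0.82 with a pseudocount of 0.1 (adjusted p = 0.006). MAP2K5 RNA, which carries the MEK5DD label, stood at 186 RPKM in MEK5DD libraries of MDA-MB-231 and at 22.5 in those of Hs-578T, and the part of this gap in the differences was not tested. Groups of 2 libraries are too small for a test of single outlying libraries.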

How the results depend on the processing

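Of 435 results under other settings with all libraries, 414 kept their direction and their side of the threshold. Median-ratio scaling turned CD276 (0.027) and CD47 (0.0023) in MDA-MB-231 ERK5-ko, CD47 in Hs-578T MEK5DD (0.049) and CD276 between Hs-578T ERK5-ko and MEK5DD (-0.054), none of which passed. Quantile normalization turned the last 2 (0.054 and -0.0082). PDCD1LG2 in Hs-578T ERK5-ko no longer passed with all gene types (0.33), its line alone (0.33) or voom (0.46). CD276 in Hs-578T MEK5DD no longer passed with a pseudocount of 0.1 (-0.28), no filter (-0.28), median-ratio scaling (-0.19), quantile normalization (-0.18), all gene types (-0.28), its line alone (-0.28) or voom (-0.28). Neither did NT5E in MDA-MB-231 MEK5DD with quantile normalization (0.17), NT5E between Hs-578T ERK5-ko and MEK5DD in its line alone (-0.26), or the CD274 MEK5DD difference between lines with a pseudocount of 1 (-0.28), which left 1 gene in that comparison, while 0.1 gave -0.82 and voom -0.92. The PDCD1LG2 MEK5DD difference between lines passed with median-ratio scaling (-0.46), that of CD47 with quantile normalization (-0.35). The cause was not tested.

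With the study's fold thresholds, 0 of the 5 genes were called in MDA-MB-231 ERK5-ko, where 2.8% of all genes were higher and 1.07% lower. In Hs-578T ERK5-ko 1 was called (9.35% and 3.27%), in MDA-MB-231 MEK5DD 2 (7.64% and 6.31%) and in Hs-578T MEK5DD 2 (2.9% and 1.49%). Between ERK5-ko and MEK5DD 2 were called in MDA-MB-231 (17.5% and 6.12%) and 0 in Hs-578T (15.3% and 3.96%). Between parental lines 3 were called (34.1% and 15.4%). As differences between lines, 1 was called for ERK5-ko (13.3% and 7.31%) and 0 for MEK5DD (15.3% and 6.89%).

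Without single libraries, 496 of 540 results kept direction and side. In MDA-MB-231 ERK5-ko, PDCD1LG2 ranged from -0.57 to -0.47, CD276 from -0.11 to 0.032 and CD47 from -0.13 to 0.0035, with 1 to 2 genes passing. In Hs-578T ERK5-ko, PDCD1LG2 ranged from 0.21 to 0.45. In MDA-MB-231 MEK5DD, CD47 ranged from -0.38 to -0.28 and NT5E from 0.24 to 0.29, with 3 to 5 genes passing. In Hs-578T MEK5DD, CD276 ranged from -0.35 to -0.22 and CD47 from -0.081 to 0.00017. Between ERK5-ko and MEK5DD, CD47 in MDA-MB-231 ranged from 0.20 to 0.33, and in Hs-578T CD274 from -0.10 to 0.075, CD276 from -0.011 to 0.14 and NT5E from -0.34 to -0.19. As MEK5DD differences between lines, CD274 ranged from -0.59 to -0.41 and PDCD1LG2 from -0.51 to -0.26, with 1 to 3 genes passing.

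Replicate numbers follow passage order, and deviations of same-numbered libraries correlated at 0.107 to 0.541 over 6 pairs of groups. With the replicate number as a block, 0 of 45 results changed their call, and CD274 between parental lines was 3.52. Depth limits CD274 in parental Hs-578T, with 23 and 31 reads.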

Other observations

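A pair of further groups of ligands were read in the same fit, besides the 5 genes. Of 8 tested costimulatory ligands of the TNF family and HVEM, 3 rose and 0 fell in MDA-MB-231 ERK5-ko libraries, 0 and 6 in MDA-MB-231 MEK5DD libraries, 2 and 2 in Hs-578T ERK5-ko libraries and 1 and 1 in Hs-578T MEK5DD libraries. Of all tested genes, 6.91% were higher and 10.4% lower in the first of these comparisons, 17.5% and 23.8% in the second, 19.7% and 19.7% in the third and 6.44% and 17.0% in the fourth. TNFSF9, the gene of 4-1BB ligand, rose in ERK5-ko libraries of both lines (log2 fold change 1.21 for MDA-MB-231 and 0.73 for Hs-578T) and fell in MDA-MB-231 MEK5DD libraries (-0.60), where TNFSF10, the gene of the death ligand TRAIL, fell further (-1.77). TNFRSF14, the gene of HVEM, fell in Hs-578T ERK5-ko libraries (-1.17). Of 24 tested genes of other inhibitory ligands, 5 rose and 2 fell in MDA-MB-231 ERK5-ko, 5 and 6 in Hs-578T ERK5-ko, 3 and 9 in MDA-MB-231 MEK5DD and 4 and 1 in Hs-578T MEK5DD libraries.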
